A study of Medicago truncatula with 15 samples.

Results

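The genes described here are the *SEPALLATA* (*SEP*) and *AGL6* genes of *Medicago truncatula*, taken by locus from the candidate flowering genes of the study. There were 8 of them among the 50021 loci of the transcriptome: *SEP4* on chromosome 4 (Medtr4g109810), *SEP4* on chromosome 5 (Medtr5g046830), *SEP3a* (Medtr3g084980), *SEP3b* (Medtr8g097090), *SEP1/2a* (Medtr6g015975), *SEP1/2b* (Medtr7g016600), *AGL6* on chromosome 7 (Medtr7g075850) and *AGL6* on chromosome 8 (Medtr8g033270). Each locus had 1 annotated transcript, and all 8 were found in the deposited tables.

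RNA was measured in 15 libraries, 3 in each of 5 groups. The triple mutant group was the shoot apex of 83-day-old non-flowering plants with CRISPR-Cas9 edits in *MtSOC1a*, *MtSOC1b* and *MtSOC1c*, in lines where Cas9 had been expressed from the 35S promoter. The *Mtsoc1a* groups were the leaf and the shoot apex of 15-day-old plants with a *Tnt1* retrotransposon insertion in *MtSOC1a*, and the WT groups were the leaf and the shoot apex of 15-day-old R108 plants. All plants were vernalized and grown in long days. Apices of 3 plants were pooled for each apex library and leaves of 2 plants for each leaf library. The apex samples of *Mtsoc1a* and WT took in the upper part of the primary stem, while those of the triple mutant are described as primary shoot apices. The triple mutant line is named *Mtsoc1-4* in the sample labels and *Mtsoc1-2* in the article. In every comparison with the triple mutant, the genotype, the age of the plants, the dissection and the library preparation cannot be told apart.

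*SEP* genes encode MADS-box transcription factors. In Arabidopsis they are the E-class partners that join the A-, B- and C-class proteins in the complexes that specify sepals, petals, stamens, carpels and ovules. *AGL6* genes form the sister group of the *SEP* genes. In petunia and rice they act in floral organ and meristem identity, and in Arabidopsis *AGL6* has also been linked to flowering time. Transcripts of most genes of this class are best known from flowers. Their levels in leaf and apex samples are thus of interest here beside those of *SOC1*, a MADS-box gene that promotes flowering.

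Estimated counts per library came to 13224488 to 15891830 in the triple mutant and to 30574854 to 38896407 in the other 4 groups, so a gene of low level rested on fewer counts in the triple mutant. *MtSOC1a*, the gene with the insertion, had 47, 22 and 29 counts in the *Mtsoc1a* apex, against 698, 865 and 582 counts in the WT apex. In the triple mutant apex *MtSOC1a* had 413, 408 and 454 counts, but counts over a whole transcript do not check a small edit. The tissue labels were checked with 5 shoot apex genes, *HDL*, *LFY*, *TFL1a*, *TFL1c* and *FDa*. All 5 had 0 counts in all 6 leaf libraries, and *LFY*, *TFL1c* and *FDa* had counts in all 9 apex libraries. *HDL*, the *WUSCHEL* homolog that maintains the stem cells of the meristem, had 0 counts in all 3 triple mutant apex libraries, against 0, 3 and 6 counts in the *Mtsoc1a* apex and 4, 14 and 7 counts in the deeper WT apex libraries.

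The 8 genes were low in the shoot apex and 2 of them were high in the leaf. As TPM, a share of all transcripts corrected for transcript length so that levels can be compared between genes, the authors' group values summed over the 8 genes came to 4.85 in the triple mutant apex, 3.48 in the *Mtsoc1a* apex, 23.9 in the *Mtsoc1a* leaf, 4.71 in the WT apex and 27.3 in the WT leaf. *SEP4* on chromosome 4 and *SEP3a* together made up 94.7% of this sum in the *Mtsoc1a* leaf and 94.6% in the WT leaf, against 31.1% in the *Mtsoc1a* apex and 25.8% in the WT apex. In the triple mutant apex they made up 80.7%, most of it from *SEP4* on chromosome 4. Only that gene passed 1 TPM in the triple mutant apex (3.16 TPM), only *SEP4* on chromosome 5 did in the WT apex (1.6 TPM), and none of the 8 did in the *Mtsoc1a* apex. The TPM value of the *Mtsoc1a* apex is a mean of replicates 1 and 2 only, as the arithmetic of the deposited values shows, so every TPM of that group covers those 2 libraries. Counts and CPM (counts scaled by library size, not corrected for length) cover all 3.

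**Figure D1:**
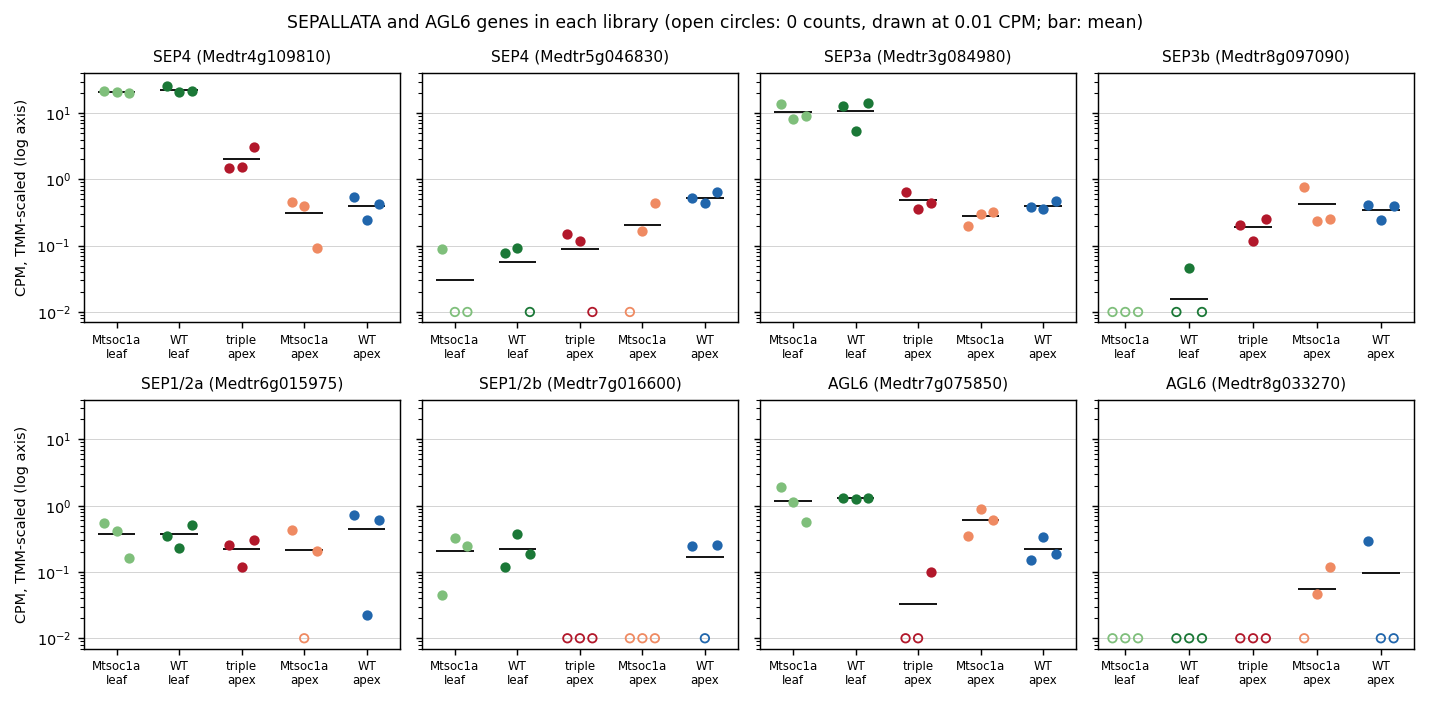
Levels of the 8 *SEP* and *AGL6* genes in each of the 15 libraries, in CPM scaled by TMM on a log axis, with 1 panel for each gene. Filled circles are libraries, open circles are libraries with 0 counts (drawn at 0.01 CPM) and black bars are group means. *SEP4* on chromosome 4 and *SEP3a* stand apart in the leaf, and the other 6 genes stay below 2 CPM in every library.

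In both genotypes *SEP4* on chromosome 4 and *SEP3a* rose strongly in the leaf, *AGL6* on chromosome 7 rose in the leaf of WT, and *SEP3b* fell in the leaf of both genotypes. The question was where in the plant each gene is expressed, and the 12 libraries of 15-day-old plants shared one edgeR fit. Calls required at least a 2-fold difference and an adjusted p no higher than 0.05. Of the 8 genes, 6 passed the filter on low counts. In the WT leaf against the WT apex 3 genes were higher and 1 was lower, where 42.1% of all transcripts tested were called, 19.4% higher and 22.7% lower. In the *Mtsoc1a* leaf against the *Mtsoc1a* apex 2 were higher and 1 was lower, where 41.6% of all transcripts were called, 19.5% higher and 22.0% lower. By the libraries alone, 3 of the 6 genes were higher and 2 lower in every WT leaf library than in any WT apex library (30.8% and 37.2% of all transcripts), and 2 were higher and 1 lower in *Mtsoc1a* (29.6% and 34.5%). The median log2 fold change of the 6 genes was 1.10 in WT, against -0.125 over all transcripts tested. In *Mtsoc1a* it was 0.919, against -0.0931.

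The highest levels of the family were those of *SEP4* on chromosome 4. It had 647, 450 and 459 counts in the WT leaf, against 28, 11 and 18 counts in the WT apex. The *Mtsoc1a* leaf had 479, 455 and 492 counts, against 21, 17 and 4 counts in the *Mtsoc1a* apex. No leaf library came near an apex library in either genotype. The level was 22.6 ± 2.45 CPM in the WT leaf and 0.403 ± 0.15 CPM in the WT apex (SD, n = 3 each). Leaf exceeded apex by 5.78 on the log2 scale in WT (SE 0.46, edgeR adjusted p = 1.15e-06) and by 6.08 in *Mtsoc1a* (SE 0.47, edgeR adjusted p = 9.43e-07).

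*SEP3a* followed the same order of groups at a lower level. *SEP3* of Arabidopsis is the most broadly interacting of the E-class proteins. *SEP3a* had 331, 118 and 306 counts in the WT leaf, against 20, 16 and 20 counts in the WT apex. It had 308, 177 and 226 counts in the *Mtsoc1a* leaf, against 9, 13 and 14 counts in the *Mtsoc1a* apex. The second WT leaf library was the lowest of the 6 leaf libraries and still far above every apex library. Leaf exceeded apex by 4.75 on the log2 scale in WT (SE 0.42, edgeR adjusted p = 2.83e-06) and by 5.28 in *Mtsoc1a* (SE 0.44, edgeR adjusted p = 1.65e-06).

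*SEP3b*, the paralog of *SEP3a*, showed the opposite pattern at a far lower level. It had 0, 1 and 0 counts in the WT leaf, against 21, 11 and 17 counts in the WT apex. In *Mtsoc1a* it had 0 counts in all 3 leaf libraries, against 36, 10 and 11 counts in the apex. The summed counts of 1 and 49 made it 24.0-fold lower in the WT leaf (95% interval from counting error alone, 4.11 to 966), and edgeR gave -4.26 on the log2 scale (SE 1.29, adjusted p = 0.0195). Taking a floor of 3 counts over the leaf group, it was 9.88-fold lower in the *Mtsoc1a* leaf than in the *Mtsoc1a* apex. The separate edgeR test, which does not use this floor, called it lower there as well (adjusted p = 0.00529). The call in WT was lost without WT apex replicate 1 (adjusted p = 0.0563) or 3 (adjusted p = 0.0544) and without WT leaf replicate 1 (adjusted p = 0.072) or 3 (adjusted p = 0.066). The gene reached the level of the filter in all 6 of these apex libraries and in 0 leaf libraries, so it entered the test through the apex, and both calls held without the filter. All 9 apex libraries had at least 2 counts of *SEP3b*.

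*AGL6* on chromosome 7 had 33, 27 and 28 counts in the WT leaf, against 8, 15 and 8 counts in the WT apex. Leaf and apex did not overlap in WT. The level was 1.29 ± 0.0357 CPM in the WT leaf and 0.225 ± 0.0942 CPM in the WT apex (SD, n = 3 each), and edgeR gave 2.51 on the log2 scale (SE 0.63, adjusted p = 0.00563). In *Mtsoc1a* the leaf had 42, 24 and 14 counts and the apex 16, 38 and 26 counts. These groups overlapped, and the value of 1.00 on the log2 scale was not called (SE 0.60, adjusted p = 0.182).

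The size of this difference depends on how leaf and apex libraries are put on one scale. Scaling by library totals in place of TMM shifted the median log2 fold change of all transcripts by -1.05 in WT and by -1.19 in *Mtsoc1a*. The share of calls that were higher in the leaf went to 18.3% in WT with library totals, against 46.1% with TMM, and to 16.0% in *Mtsoc1a*, against 47.0%. With library totals *AGL6* on chromosome 7 lost its call in WT (log2 fold change 1.46, adjusted p = 0.0656) and its value in *Mtsoc1a* turned to -0.17. Under this scaling the directions and calls of *SEP3a*, *SEP3b* and *SEP4* on chromosome 4 held in both genotypes.

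*SEP4* on chromosome 5 had at most 2 counts in any leaf library, unlike its namesake on chromosome 4. It had 2, 2 and 0 counts in the WT leaf, against 27, 20 and 27 counts in the WT apex, and the groups did not overlap. The test gave -3.15 on the log2 scale (SE 1.55, adjusted p = 0.108). The gene reached the level of the filter in 3 WT apex, 1 *Mtsoc1a* apex and 0 leaf libraries, so it entered the test through the apex. The call depended on the setting, since with counts summed to genes the adjusted p was 0.0463 and with library totals it was 0.0383. In the *Mtsoc1a* leaf it had 2, 0 and 0 counts, against 0, 7 and 19 counts in the *Mtsoc1a* apex, or -2.58 on the log2 scale (adjusted p = 0.202).

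The *SEP1/2* genes had few counts in both tissues. *SEP1/2a* had 9, 5 and 11 counts in the WT leaf, against 37, 1 and 26 counts in the WT apex, and 12, 9 and 4 counts in the *Mtsoc1a* leaf, against 20, 0 and 9 counts in the *Mtsoc1a* apex. Leaf over apex gave -0.31 on the log2 scale in WT (SE 1.31, adjusted p = 0.862) and 0.84 in *Mtsoc1a* (SE 1.33, adjusted p = 0.626), neither of them called. *SEP1/2b* did not pass the filter on low counts. It had 3, 8 and 4 counts in the WT leaf, against 13, 0 and 11 counts in the WT apex. The *Mtsoc1a* leaf had 1, 7 and 6 counts and the *Mtsoc1a* apex 0 counts in all 3 libraries. With the floor of 3 counts over the apex group, the leaf was 8.98-fold higher. DESeq2, which called 39.2% of all transcripts in this comparison, tested *SEP1/2b* and called it (adjusted p = 0.00945). In WT it did not (40.4% of all transcripts called). *AGL6* on chromosome 8 had 0 counts in all 6 leaf libraries.

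**Figure D2:**
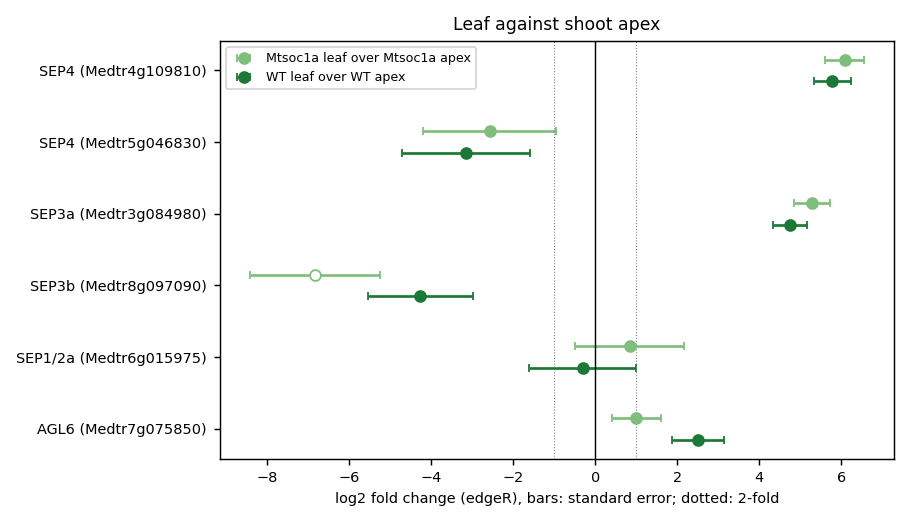
Log2 fold change of leaf over shoot apex from edgeR for the 6 genes tested, in *Mtsoc1a* (light green) and in WT (dark green). Bars are standard errors, dotted lines mark a 2-fold change, and the open circle marks *SEP3b* in *Mtsoc1a*, whose leaf libraries all had 0 counts, so that its fitted value is no bound. *SEP4* on chromosome 4 (6.08 and 5.78) and *SEP3a* (5.28 and 4.75) lie far to the right in both genotypes, and *SEP3b* lies to the left in both.

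Between plants with the *Tnt1* insertion (*Mtsoc1a*) and WT, no *SEP* or *AGL6* gene tested was called, in leaf or apex. The edgeR test missed *MtSOC1a* itself as well. Its transcripts had an adjusted p of 0.186 and 0.218 in the apex and of 0.125 and 0.222 in the leaf. DESeq2 called them lower, at 1.39e-08 and 9.24e-09 in the apex and 1.53e-10 and 3.61e-05 in the leaf. The absence of an edgeR call is thus weak evidence of no change. In the leaf, 3 of the 8 genes were tested and 0 were called by edgeR, where 0.05% of all transcripts were called. The unadjusted p was under 0.05 for 0 of the 3, and DESeq2, which called 0.885% of all transcripts, called 0 of the 4 genes it tested. On the log2 scale *Mtsoc1a* leaf over WT leaf gave -0.09 for *SEP4* on chromosome 4 (SE 0.12, adjusted p = 0.897), -0.06 for *SEP3a* (SE 0.39, adjusted p = 0.986) and -0.10 for *AGL6* on chromosome 7 (SE 0.55, adjusted p = 0.982). These genes had the leaf counts given above. The *Mtsoc1a* and WT leaf libraries overlapped for each of the 3, where 7.96% of all transcripts were higher and 8.35% lower in every *Mtsoc1a* library.

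In the apex, 6 genes were tested and 0 were called by edgeR, where 0.0154% of all transcripts were called. By DESeq2, which called 1.29% of all transcripts, it was also 0 of 6, and 0 of the 6 had an unadjusted p under 0.05. The median log2 fold change of the 6 genes was -0.444, against -0.0158 over all transcripts tested. Some genes entered this median mainly through the group where they were higher. *SEP4* on chromosome 5 reached the level of the filter in 3 WT and 1 *Mtsoc1a* apex libraries, and *AGL6* on chromosome 7 in 1 and 3. The median thus cannot be read as a fall of the family. The groups did not overlap for 2 of the 6 genes. Of all transcripts tested, 7.5% were higher in all 3 *Mtsoc1a* apex libraries than in any WT apex library and 8.63% were lower. *AGL6* on chromosome 7 was higher in all 3 *Mtsoc1a* libraries, at 0.616 ± 0.274 CPM in the *Mtsoc1a* apex and 0.225 ± 0.0942 CPM in the WT apex (SD, n = 3 each), or 1.45 on the log2 scale (SE 0.91, edgeR adjusted p = 0.623). *SEP3a* was lower in all 3, at 0.276 ± 0.0711 CPM in the *Mtsoc1a* apex and 0.404 ± 0.0606 CPM in the WT apex (SD, n = 3 each), or -0.54 on the log2 scale (SE 0.57, edgeR adjusted p = 0.796). With 3 libraries against 3, an exact two-sided permutation test of a single gene cannot give less than 0.1, which both genes reached.

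The remaining genes overlapped between the *Mtsoc1a* and WT apex. *SEP4* on chromosome 5 had 0, 7 and 19 counts in the *Mtsoc1a* apex, against 27, 20 and 27 counts in the WT apex (log2 fold change -1.38, SE 1.24, adjusted p = 0.754). After scaling, the third *Mtsoc1a* library lay just above the lowest WT library. *SEP1/2b*, which was not tested, had 0 counts in all 3 *Mtsoc1a* libraries, against 13, 0 and 11 counts in the WT apex. With the floor of 3 counts over the group, it was 7.54-fold lower. Its second WT library was at 0 as well. *AGL6* on chromosome 8 had 0, 2 and 5 counts in the *Mtsoc1a* apex, against 15, 0 and 0 counts in the WT apex.

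The difference between *Mtsoc1a* and WT was also compared between leaf and apex. It was an interaction term in the fit of the 12 libraries of 15-day-old plants. Of the 6 genes tested 0 were called by edgeR, where 0.0337% of all transcripts were called. By DESeq2 (1.44% of all transcripts) it was 0 of 6 as well, and 0 of the 6 reached an unadjusted p under 0.05. The lowest p of the 6 was that of *AGL6* on chromosome 7, with a log2 difference of -1.51 (SE 0.85, adjusted p = 0.695). No difference of the *AGL6* fold change between leaf and apex was detected.

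The triple mutant apex had more *SEP4* (chromosome 4) than both other apices, by calls that were lost when some single libraries were left out. *AGL6* on chromosome 7 had 0, 0 and 2 counts in these shallower libraries and was not called against WT. The comparison asked how the family stands in plants that do not flower. Against the WT apex, 6 of the 8 genes were tested, 1 was called higher and 0 lower, where 6.43% of all transcripts tested were called, 1.6% higher and 4.83% lower. DESeq2 here also called 1 higher and 0 lower, where 8.42% of all transcripts were called. The article, with its own DESeq2 run, places *SEP* and *AGL6* homologs among the downregulated genes of this apex. Its text does not name the loci but refers to its supplementary results, which are not set against these 8 genes here. The median log2 fold change of the 6 genes was -0.938, against -0.0283 over all transcripts tested. *SEP4* on chromosome 5, *SEP3b* and *AGL6* on chromosome 7 reached the level of the filter in 0 triple mutant libraries. They entered the median through the other apices, so it cannot be read as a fall of the family. Against the *Mtsoc1a* apex, 1 was called higher and 1 lower, where 9.81% of all transcripts were called, 3.04% higher and 6.77% lower. DESeq2 called the same 2 genes, and 11.8% of all transcripts. Every triple mutant library was above every *Mtsoc1a* apex library for 2 of the 6 genes and below for 1, against 22.2% and 22.5% of all transcripts. Both comparisons share the triple mutant libraries and the fit of 9 apex libraries. RNA came from whole tissue pieces, so fewer cells of a type and less RNA per cell cannot be told apart.

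In the triple mutant apex *SEP4* on chromosome 4 had 29, 26 and 61 counts, against 28, 11 and 18 counts in the WT apex, from libraries of a smaller total. Scaled, this was 2.01 ± 0.889 CPM in the triple mutant apex and 0.403 ± 0.15 CPM in the WT apex (SD, n = 3 each), and the groups did not overlap. By edgeR the difference was 2.30 on the log2 scale (SE 0.66, adjusted p = 0.0457), close to the threshold. DESeq2, which called 8.42% of all transcripts, called it as well (adjusted p = 0.0058), but the edgeR call was lost when any 1 of the 6 libraries was left out, with an adjusted p of 0.0782, 0.0867 and 0.178 without triple mutant apex replicates 1, 2 and 3 and of 0.0825, 0.137 and 0.105 without WT apex replicates 1, 2 and 3. The fold change stayed positive in all of these, at 1.87 to 2.58 on the log2 scale.

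Against the *Mtsoc1a* apex, with 21, 17 and 4 counts, *SEP4* on chromosome 4 was higher by 2.65 on the log2 scale (SE 0.67, edgeR adjusted p = 0.0229). This call was lost without *Mtsoc1a* apex replicate 2 (adjusted p = 0.0594) and without triple mutant apex replicate 3 (adjusted p = 0.0972). The triple mutant apex reached 8.88% of the WT leaf level of this gene, against 1.4% in the *Mtsoc1a* apex and 1.78% in the WT apex.

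Photosynthesis genes moved with this group. The summed level of the study's 24 photosynthesis transcripts ranged over 903 to 1670 CPM in the triple mutant apex, 281 to 415 CPM in the *Mtsoc1a* apex and 239 to 395 CPM in the WT apex, against 7570 to 9780 CPM in the *Mtsoc1a* leaf and 4560 to 5250 CPM in the WT leaf. The triple mutant apex thus had 24.1% of the WT leaf sum. Of the 24 transcripts, 18 were called higher there than in the WT apex and 0 lower, beside 1.6% and 4.83% of all transcripts. The study drew this list from these very samples, which makes its direction no independent evidence. Its part in the level of *SEP4* was not tested. *SEP3a*, which is also high in the leaf, had 13, 6 and 9 counts in the triple mutant apex, against 20, 16 and 20 counts in the WT apex, or 0.26 on the log2 scale once scaled (SE 0.57, adjusted p = 0.81). It stood at 4.43% of its WT leaf level in the triple mutant apex, against 3.68% in the WT apex.

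*AGL6* on chromosome 7 had 0, 0 and 2 counts in the triple mutant apex, against 16, 38 and 26 counts in the *Mtsoc1a* apex and 8, 15 and 8 counts in the WT apex. The triple mutant libraries lay below all 6 others. The summed counts of 2 and 80 made it 17.3-fold lower than in the *Mtsoc1a* apex (95% interval from counting error alone, 4.64 to 145). There edgeR gave -4.03 on the log2 scale (SE 1.14, adjusted p = 0.0341). The gene reached the level of the filter in 0 triple mutant, 3 *Mtsoc1a* and 1 WT apex libraries, so it entered the test through the group where it was high, and without the filter it was not called (adjusted p = 0.0565). The call was also lost without *Mtsoc1a* apex replicate 2 (adjusted p = 0.107) or 3 (adjusted p = 0.0822) and without triple mutant apex replicate 1 (adjusted p = 0.102) or 2 (adjusted p = 0.107). Against the WT apex the gene was 6.32-fold lower by counts of 2 and 31 (95% interval 1.61 to 54.5), which did not pass the test (log2 fold change -2.59, SE 1.13, adjusted p = 0.159).

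*SEP4* on chromosome 5 had 3, 2 and 0 counts in the triple mutant apex, against 27, 20 and 27 counts in the WT apex. The groups did not overlap, but the difference did not pass the test (log2 fold change -2.55, SE 1.39, adjusted p = 0.257). This gene reached the level of the filter in 0 triple mutant, 1 *Mtsoc1a* and 3 WT apex libraries, so it entered the test through the groups where it was higher. In all, 1 of the 6 genes tested was higher and 2 were lower in every triple mutant library than in any WT apex library, where 18.0% of all transcripts were higher and 20.5% lower in this way. By these libraries the *SEP4* genes stood on opposite sides of WT in the triple mutant apex. Only the difference of the gene on chromosome 4 was called, and that call was lost when any library compared was left out.

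*SEP3b* had 4, 2 and 5 counts in the triple mutant apex, against 21, 11 and 17 counts in the WT apex (log2 fold change -0.87, SE 0.74, adjusted p = 0.485). *SEP1/2a* had 5, 2 and 6 counts, against 37, 1 and 26 counts in the WT apex (log2 fold change -1.01, SE 1.39, adjusted p = 0.687). Neither separated from WT beyond the spread between libraries. *SEP1/2b* and *AGL6* on chromosome 8 had 0 counts in all 3 triple mutant libraries. With the floor of 3 counts over the group, they were 3.26-fold and 2.04-fold lower than in the WT apex. There the second library had 0 counts of both and the third had 0 of *AGL6*, so the *AGL6* value rested on the first library alone. At the depth of the triple mutant libraries, levels below this floor could not be seen.

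**Figure D3:**
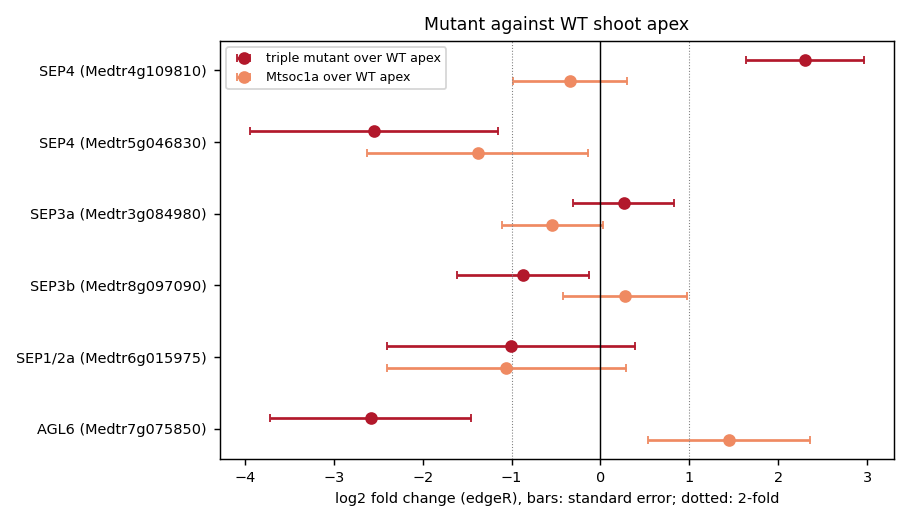
Log2 fold change over the WT shoot apex from edgeR for the 6 genes tested, in the triple mutant (red) and in *Mtsoc1a* (orange). Bars are standard errors and dotted lines mark a 2-fold change. The one value called is *SEP4* on chromosome 4 in the triple mutant (2.30), and *AGL6* on chromosome 7 lies at -2.59 in the triple mutant and at 1.45 in *Mtsoc1a*.

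The 8 genes fell into different orders over the 5 groups, here by mean CPM and with groups taken as separate where their libraries did not overlap. The level of *SEP4* on chromosome 4 was highest in the WT and *Mtsoc1a* leaf, which overlapped, then in the triple mutant apex, which stood apart on both sides, and lowest in the WT and *Mtsoc1a* apex, which overlapped. *SEP3a* had the 2 leaf groups above the 3 apex groups. *AGL6* on chromosome 7 had the WT leaf, the *Mtsoc1a* leaf and the *Mtsoc1a* apex first, which overlapped only from neighbour to neighbour, followed by the WT apex and then the triple mutant apex, each apart from the next. *SEP3b* had the 3 apex groups, which overlapped from neighbour to neighbour, above the 2 leaf groups. For *SEP4* on chromosome 5, *SEP1/2a*, *SEP1/2b* and *AGL6* on chromosome 8, each group overlapped with the next in the order.

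In many flowering plants *SEP* genes lie beside genes of the *AP1*/*FUL* group, and *AGL6* genes beside *SOC1* genes. Here 5 of the 8 genes had such a partner within 50 locus numbers of their own. Only the flowering lists were searched, so other genes may lie between. By these numbers *SEP4* on chromosome 4 was near *FULb* (Medtr4g109830), *SEP4* on chromosome 5 near *AP1b* (Medtr5g046790) and *SEP1/2b* near *FULc* (Medtr7g016630). *AGL6* on chromosome 7 was near *MtSOC1a* (Medtr7g075870), and *AGL6* on chromosome 8 near *MtSOC1b* (Medtr8g033250) and *MtSOC1c* (Medtr8g033220).

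*FULb*, a *FRUITFULL*-like gene, was higher in TPM than its *SEP4* neighbour in every apex group and lower in the leaf. It had 347, 293 and 401 counts in the triple mutant apex, against 67, 43 and 62 counts in the *Mtsoc1a* apex and 188, 68 and 118 counts in the WT apex. Triple mutant over WT apex gave 2.78 on the log2 scale (SE 0.31, adjusted p = 0.00172), beside 2.30 for *SEP4*. Both genes of this pair were thus called higher in the triple mutant apex. In the leaf they parted, with 15.2 TPM of *SEP4* and 1.84 TPM of *FULb* in the *Mtsoc1a* leaf and 17.4 TPM of *SEP4* and 3.33 TPM of *FULb* in the WT leaf. *FULb* was not called between the WT leaf and the WT apex (log2 fold change 0.58, SE 0.45, adjusted p = 0.303).

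The pair on chromosome 5 had few or no counts in the leaf. *AP1b* had 0 counts in all 6 leaf libraries, and *SEP4* on chromosome 5, whose lower leaf level was not called, had at most 2 in any of them. In the apex *AP1b* had 36, 7 and 6 counts in the triple mutant, 0 counts in all 3 *Mtsoc1a* libraries and 28, 13 and 29 counts in WT. *SEP1/2b* and *FULc*, a gene of inflorescence meristem identity in Medicago, both had 0 counts in all 3 *Mtsoc1a* apex libraries. *FULc* had 2, 7 and 8 counts in the triple mutant apex, where *SEP1/2b* had none, and 47, 21 and 51 counts in the WT apex.

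The gene near *AGL6* on chromosome 7 is the one that carries the insertion. *MtSOC1a* had 1.56 TPM in the *Mtsoc1a* apex and 29.8 TPM in the WT apex by the authors' values, while *AGL6* was at 0.932 TPM in the *Mtsoc1a* apex and 0.324 TPM in the WT apex. In the triple mutant apex *MtSOC1a* stood at 43.5 TPM and *AGL6* at 0.0493 TPM. Against the WT apex *AGL6* was called in neither mutant, nor was *MtSOC1a* in the triple mutant (adjusted p = 0.655 and 0.675 for its transcripts). In the leaf *MtSOC1a* had 10, 4 and 0 counts in *Mtsoc1a*, against 220, 203 and 181 counts in WT, whereas the *AGL6* counts of the 2 genotypes overlapped. *AGL6* on chromosome 8 had no counts in the triple mutant apex, where its neighbour *MtSOC1c* had 567, 455 and 518 counts and *MtSOC1b* had 40, 31 and 40.

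**Figure D4:**
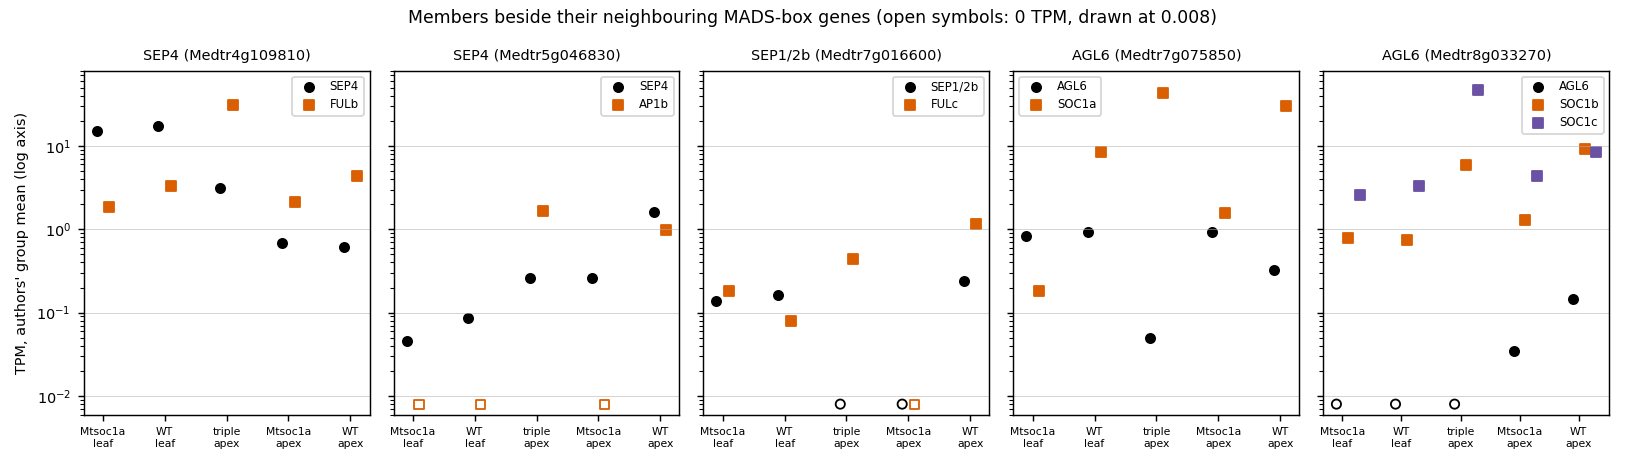
Levels of 5 *SEP* and *AGL6* genes (black circles) and of the MADS-box genes near them by locus number (squares) in the 5 groups, as the authors' TPM per group on a log axis. Open symbols are values of 0 drawn at 0.008, and the *Mtsoc1a* apex value covers 2 of its 3 libraries. *SEP4* on chromosome 4 and *FULb* are both raised in the triple mutant apex (3.16 and 30.7 TPM), while *AGL6* on chromosome 7 is low there (0.0493 TPM) beside a high *MtSOC1a* (43.5 TPM).

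The 13 other floral MADS-box and meristem identity genes of the candidate list (15 transcripts) were taken as a group: *AP1*, *AP1b*, *CALd*, *FULa*, *FULb*, *FULc* and *LFY*, the B-class genes *AP3a*, *AP3b* and *PI*, and the C- and D-class genes *AGa*, *SHP* and *STK*. In the WT leaf against the WT apex, 6 of 13 transcripts tested were higher and 2 lower, and in the *Mtsoc1a* leaf against the *Mtsoc1a* apex 9 of 13 were higher and 1 lower. Over all transcripts the shares were 19.4% higher and 22.7% lower in WT, and 19.5% higher and 22.0% lower in *Mtsoc1a*. Their median log2 fold change was 1.03 in WT and 2.53 in *Mtsoc1a*, against -0.125 and -0.0931 over all transcripts tested in the 2 genotypes.

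Of the organ identity genes, 5 were called higher in the WT leaf, as *SEP4* on chromosome 4 and *SEP3a* were, and *PI* was not tested by edgeR. Of all transcripts tested, 19.4% were called higher in this comparison. *AGa*, an *AGAMOUS*-like gene of stamen and carpel identity, had 360, 242 and 268 counts in the WT leaf, against 10, 0 and 2 counts in the WT apex (log2 fold change 7.17, SE 1.00, adjusted p = 0.000104). *AP3a*, a B-class gene of petal and stamen identity, had 142, 154 and 231 counts in the WT leaf, against 17, 12 and 13 counts in the WT apex (log2 fold change 4.70, SE 0.53, adjusted p = 1.98e-05). *STK*, a gene of ovule identity, had 17, 19 and 26 counts in the WT leaf and 0 counts in all 9 apex libraries. *AP3b* and *SHP* were also called higher in the WT leaf, and all 5 genes kept these calls with library totals. *PI*, with which AP3 proteins pair, had 1, 0 and 0 counts in the WT leaf, against 31, 0 and 6 counts in the WT apex, groups that overlapped (DESeq2 adjusted p = 0.396). *LFY*, which activates the organ identity genes in Arabidopsis flowers, had 0 counts in all 6 leaf libraries, against 207, 132 and 135 counts in the WT apex.

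In the triple mutant apex against the WT apex 1 of 10 partner transcripts tested was higher (*FULb*) and 2 were lower, beside 1.6% and 4.83% of all transcripts. DESeq2, which called 8.42% of all transcripts, called 2 higher and 2 lower. *AP1*, which sets floral meristem identity, had 1, 0 and 0 counts in the triple mutant apex, against 133, 17 and 140 counts in the WT apex (adjusted p = 0.0204). *LFY* had 28, 39 and 21 counts in the triple mutant apex, against 207, 132 and 135 counts in the WT apex (log2 fold change -1.10, SE 0.32, adjusted p = 0.0472). In the *Mtsoc1a* apex against the WT apex 0 of 10 were called by edgeR, beside 0.0154% of all transcripts. There the unadjusted p was under 0.05 for 6, and by DESeq2, which called 1.29% of all transcripts, 3 of 11 were lower. *AP1* had 0 counts in all 3 *Mtsoc1a* apex libraries. In the *Mtsoc1a* leaf against the WT leaf 0 of 9 partner transcripts were called by edgeR (0.05% of all transcripts) and 0 of 9 by DESeq2 (0.885%), with 1 at an unadjusted p under 0.05.

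The WT apex libraries differed among themselves in these genes. The second library had 1 count of *SEP1/2a*, against 37 and 26 in the first and the third. It had 0 counts of *SEP1/2b*, against 13 and 11, and 17 counts of *AP1*, against 133 and 140. *PI* had 0 counts there, against 31 and 6, and *AGa* 0, against 10 and 2. The same library had 20 counts of *SEP4* on chromosome 5, 11 of *SEP3b* and 15 of *AGL6* on chromosome 7, after scaling above the other 2 for *AGL6* and below them for the *SEP* genes. The spread of *SEP1/2a* in the WT apex (0.45 ± 0.374 CPM, SD, n = 3) thus came mostly from 1 library.

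**Figure D5:**
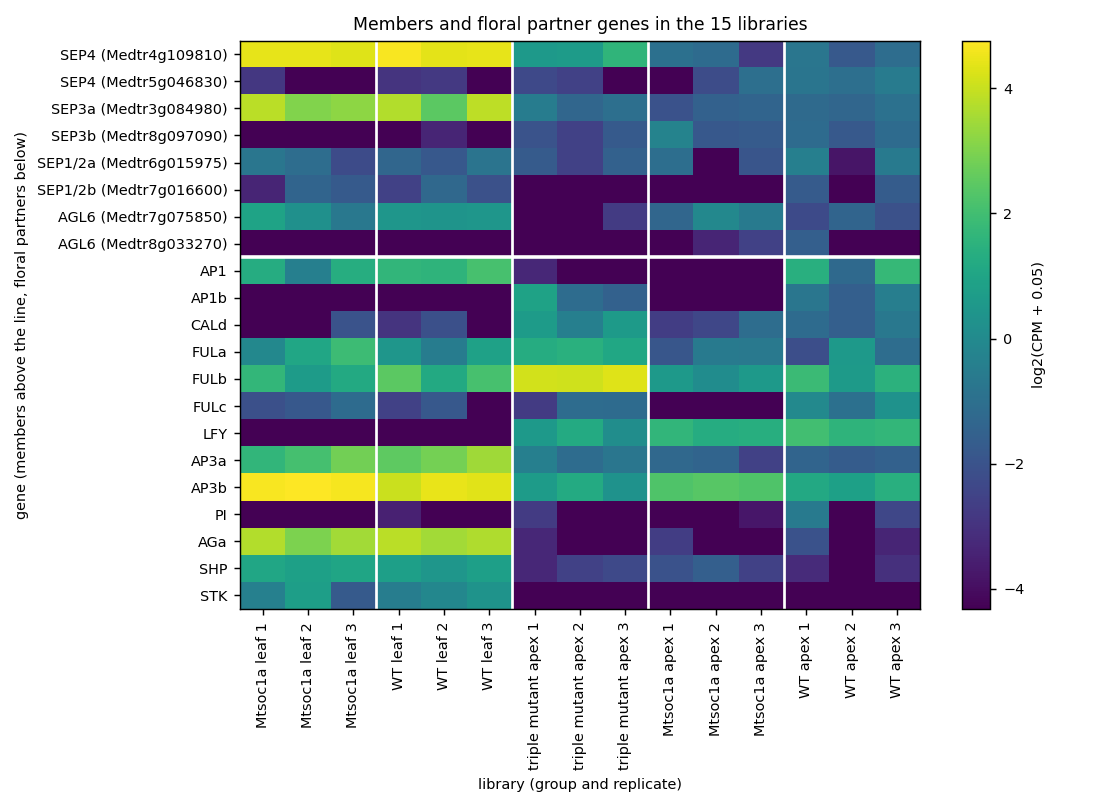
Heat map of the 8 *SEP* and *AGL6* genes (above the white line) and 13 floral partner genes (below it) in the 15 libraries, coloured by log2(CPM + 0.05). White vertical lines part the groups. *SEP4* on chromosome 4, *SEP3a*, *AP3a*, *AP3b* and *AGa* are bright in all 6 leaf libraries, *LFY* is at 0 there, and *AP1*, *PI* and the *SEP1/2* genes are darker in the second WT apex library than in the first and the third.

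For the 6 genes that passed a filter over all 15 libraries, Pearson's r of log2 CPM was computed with the 109 transcripts of the study's flowering lists that passed as well. The points are the 15 libraries, which share the split into leaf and apex, so each value is a description with no test. In this list *SEP4* on chromosome 4 was most like *AP3a* (r = 0.963), *LHY* (r = 0.955) and *COLi* (r = 0.944). *SEP3a* was most like *COLi* (r = 0.985), *LHY* (r = 0.981) and *TPP* (r = 0.975). *SEP3b* was most like a *GRP* gene (Medtr6g007897, r = 0.953) and *WOX9* (r = 0.949). *AGL6* on chromosome 7 was most like *GA20OX* (Medtr6g464620, r = 0.894) and *ELF4* (Medtr8g020200, r = 0.893). *SEP4* on chromosome 5 reached r = 0.725 with *FRL*, and *SEP1/2a* reached r = 0.55 with *FTb2*, the least of the 6.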

How the data were processed

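RNA-seq of 15 libraries was used, grouped by the sample labels. The authors trimmed the reads with fastp, mapped them to the Mt4.0v2 transcriptome with Salmon 0.8.2 and tested with DESeq2 1.24.0. They deposited estimated counts per transcript and library, and TPM as one value per group, which cannot be tested. The reads came from R108 plants, so reads that differ from the reference transcriptome may be undercounted, and Salmon can divide reads between similar paralogs.

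Estimated counts were rounded and tested with edgeR 4.0.16 in R 4.3.3 (quasi-likelihood F-test, robust, TMM, filter at a minimum count of 10), with Benjamini-Hochberg adjustment over all transcripts. The 9 apex, 6 leaf and 12 libraries of 15-day-old plants had a fit each, over 25935, 21993 and 26683 transcripts. Calls required at least a 2-fold difference and an adjusted p no higher than 0.05. CPM were scaled by TMM over all 15 libraries. Intervals (95%) and floors (3 counts over a group) cover counting error only. The floors take the counts of the other group as exact, so the fold values from them are no lower bounds.

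The test was checked on simulated data, with changes put only into transcripts of higher counts and with a fixed spread. The check therefore does not cover genes with as few counts as most of these had in the apex. Alternatives were DESeq2 1.42.0 and its size factors, one fit over all 15 libraries, counts summed to genes, leaving out the filter, the fold threshold or each library in turn, a replicate block and, chosen after seeing the data, library totals. All 8 genes were named, their neighbours were those of locus numbers within 100, and the 3 most similar transcripts of the flowering lists were ranked for each gene. The genes and lists were chosen with earlier results of these data known. No sequence is shown, since 0 of the 8 loci matched the reference gene table. Replicates are pools of different plants.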

Additional observations from a re-analysis of the deposited data

How the results depend on the processing

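Depth limited most of these genes in the apex, where 7 of the 8 had a mean under 1 CPM in every apex group. The count of genes called in the triple mutant against the WT apex was 1, and it was 0 with library totals, without the filter on low counts, with the replicate block, and in every fit that left out a library (0 to 0). Against the *Mtsoc1a* apex the count was 2, and it was 1 without the filter, 0 with the replicate block and 0 to 2 when a library was left out. Replicate numbers did not pair the samples, with correlations of same-numbered libraries of -0.0659 to 0.0252 in the apex, -0.0361 to 0.0851 in the leaf and -0.0549 to 0.113 over the 15-day-old plants. Under the block *SEP4* on chromosome 4 had an adjusted p of 0.0961 against WT and 0.0629 against *Mtsoc1a*, *AGL6* on chromosome 7 had 0.0673 against *Mtsoc1a*, and *SEP3b* had 0.051 in the WT leaf against the WT apex. The count of calls in the other 5 comparisons stayed within 1.5 times under each alternative run.

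Of 543 single-gene values under alternatives, 496 kept their direction and their side of the threshold, 24 lost a call, 2 gained one and 21 changed direction, none of them called. With library totals the log2 fold change turned to -0.335 for *SEP1/2a* and -0.174 for *AGL6* on chromosome 7 in the *Mtsoc1a* leaf against the apex, and to -0.0608 for *SEP1/2a* in the triple mutant against the *Mtsoc1a* apex. With the block it turned to 0.03 for *SEP3a* in the *Mtsoc1a* against the WT leaf and to 0.225 for *SEP1/2a* in the WT leaf against the apex. When each library was left out in turn, the range crossed 0 for *SEP3a* (-0.0144 to 0.445) in the triple mutant against the WT apex, for *SEP4* on chromosome 4 (-0.706 to 0.0812) and *SEP3b* (-0.504 to 0.564) in the *Mtsoc1a* against the WT apex, and for *SEP4* on chromosome 5 (-1.79 to 0.111) and *SEP1/2a* (-0.524 to 1.06) in the triple mutant against the *Mtsoc1a* apex. It also did so for *SEP3a* (-0.39 to 0.219) and *AGL6* on chromosome 7 (-0.57 to 0.228) in the *Mtsoc1a* against the WT leaf and for *SEP1/2a* (-0.875 to 0.187) in the WT leaf against the apex. In the interaction term it did so for *SEP4* on chromosome 4 (-0.127 to 0.672) and chromosome 5 (-2.69 to 1.83). The cause was not tested.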
